A study of Homo sapiens with 9 samples.

Results

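The 34 genes described here are the protein-coding genes of mitochondrial DNA (mtDNA) and genes tied to its expression, taken by symbol from the 38478 gene rows of an RNA sequencing table. They are the 13 mtDNA protein genes, 4 nuclear genes of the MTRNR2L family that are copies of the mitochondrial 16S ribosomal RNA gene, and 17 nuclear genes for proteins that copy mtDNA, transcribe it or process its RNA. All 34 had reads, and all 34 were among the 13262 genes that passed the filter on low counts. The mtDNA genes and their MTRNR2L copies were chosen by their fold changes between the groups in earlier results of these data, so their differences between groups are given as a description with no test. The 17 nuclear factors were tested, and the question is whether they moved with the mtDNA transcripts.

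Poly(A) RNA was sequenced from OPM-1, an established human myeloma cell line grown in RPMI with fetal bovine serum. The groups were cells carrying RNAs against FBXW7 and KMT2D together (gFBXW7_gKMT2D), RNAs against FBXW7 (gFBXW7), or RNAs against luciferase (gLuc), the control. Every group, the control included, stably expressed a targeting RNA in cells labelled as wild type, and each had 3 libraries described as independent biological replicates. The labels give neither the kind of targeting RNA nor whether cells were cloned. Total counts ranged from 16337492 to 27076242 in gFBXW7_gKMT2D, from 16803332 to 19179032 in gFBXW7 and from 17025436 to 19410151 in gLuc. FBXW7 transcript stood at 46.0 to 61.1 CPM (counts scaled to a common library total) in gFBXW7_gKMT2D, 51.8 to 56.1 in gFBXW7 and 49.8 to 52.3 in gLuc, and KMT2D at 24.4 to 116.4, 47.3 to 65.2 and 39.8 to 111.3 CPM in the same groups. Neither transcript was lower across the libraries of the groups in which it was targeted, and whole-gene counts do not show whether a gene is disrupted. All 7 plasma cell markers examined were expressed (XBP1 at 423 to 603 RPKM, a read count divided by gene length and library total), and 15 of 16 markers of other cell types were under 1 RPKM in every library. The exception was HBB, at 37.2 to 67.7 RPKM.

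Mitochondria keep a small circular genome whose messenger RNAs encode core subunits of the respiratory chain and of ATP synthase. A dedicated RNA polymerase transcribes both strands as long precursors, which are cut at transfer RNAs into single messages, given poly(A) tails and held stable by RNA-binding proteins until a mitochondrial degradosome removes them. Every protein that does this is encoded in the nucleus, and plasma cells, which secrete large amounts of protein, draw on the ATP that the chain provides.

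Some of these genes share sequence, which bears on how their reads can be assigned. The MTRNR2L genes hold sequence like the reading frame of humanin, a short peptide encoded within mitochondrial 16S ribosomal RNA (MT-RNR2). The lines below show this frame of 75 bases in MT-RNR2. Under it stand the 75 bases set against it in each of the 4 nuclear copies (GENCODE v29 transcripts, GRCh38). Capitals mark bases that differ from MT-RNR2 at the same position. The stretch of MTRNR2L2, annotated as a processed pseudogene, holds the first 75 of 87 annotated bases. It does not end in a stop codon, and whether a stop follows was not examined.
MT-RNR2: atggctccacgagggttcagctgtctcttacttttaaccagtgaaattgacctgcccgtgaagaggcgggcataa
MTRNR2L8: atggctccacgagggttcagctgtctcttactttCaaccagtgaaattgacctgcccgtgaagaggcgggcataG
MTRNR2L2: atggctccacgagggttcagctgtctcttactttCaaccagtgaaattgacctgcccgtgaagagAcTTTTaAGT
MTRNR2L6: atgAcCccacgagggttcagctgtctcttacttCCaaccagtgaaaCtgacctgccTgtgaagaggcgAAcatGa
MTRNR2L1: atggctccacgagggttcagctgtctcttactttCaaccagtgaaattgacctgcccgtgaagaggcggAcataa

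The stretches lie at chrM:2633-2707 on the plus strand, chr11:10508152-10508226 on the minus strand, chr5:80650012-80650086 on the minus strand, chr7:142667231-142667305 on the plus strand and chr17:22524062-22524136 on the plus strand, in the order shown. MTRNR2L8 and MTRNR2L1 each differ from MT-RNR2 at 2 of the 75 bases, and MTRNR2L6 at 9. MTRNR2L2 also shows 9 differences, but its alignment covers 65 positions, of which 64 are identical. The other differences lie past the end of that alignment. Over whole transcripts, MTRNR2L8 is 93.0% identical to MT-RNR2 and shares an unbroken run of 88 bases with it. MTRNR2L1 is 88.5% identical with a longest run of 60 bases, and MTRNR2L6 is 84.0% identical with a longest run of 55. The annotated MTRNR2L6 transcript has 1447 bases, against a length of 2790 in the table, so its identity may not cover all of the counted length. For MTRNR2L2 the annotation holds a stretch of 87 bases, against a length of 1036 in the table, so its identity of 98.5% covers 65 aligned positions only. MT-RNR2 has no row in the table, and how reads that match several places were counted is not given in the sources used here.

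Genes of mtDNA also overlap each other. ATP8 and ATP6, subunits of ATP synthase, are read from 1 messenger RNA and share 46 bases at chrM:8527-8572. ND4L and ND4, subunits of complex I, are likewise read from 1 messenger RNA and share 7 bases at chrM:10760-10766. The lines show the junctions on the plus strand of GRCh38 from chrM:8503 and chrM:10736, with the shared bases in capitals.
MT-ATP8 and MT-ATP6 overlap: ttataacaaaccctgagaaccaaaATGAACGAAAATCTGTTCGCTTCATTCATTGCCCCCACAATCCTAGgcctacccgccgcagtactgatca
MT-ND4L and MT-ND4 overlap: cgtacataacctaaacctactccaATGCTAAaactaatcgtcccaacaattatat

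The sources used here do not say how reads in such overlaps were counted, so levels of these 4 genes are uncertain by whatever share of reads fell there. ATP8 is 207 bases long in the table and ATP6 681, so the shared bases are a larger part of ATP8.

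Per length, every mtDNA gene stood above every nuclear member on average over the 9 libraries. ATP6 was the highest, with a mean of 3905 RPKM, and ND4L the lowest of the 13, with a mean of 483 RPKM. The highest nuclear members were SLIRP at 78.5 RPKM, SSBP1 at 73.6 RPKM and LRPPRC at 58.0 RPKM. The lowest factor, TFB1M, had a mean of 2.24 RPKM. The genes named ND encode subunits of complex I, CYTB the cytochrome b of complex III, and COX1, COX2 and COX3 subunits of cytochrome c oxidase, complex IV. Over the 9 libraries, COX1 ranged from 1015 to 4556 RPKM, COX2 from 1159 to 5771 RPKM and COX3 from 785 to 6203 RPKM. CYTB ranged from 218 to 2167 RPKM and ND5 from 192 to 1082 RPKM, and these had the lowest mean levels of the 13 together with ND4L.

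ATP6 had 6535, 6167 and 3026 RPKM in the gFBXW7_gKMT2D libraries, 649, 2351 and 2339 RPKM in the gFBXW7 libraries and 2670, 5594 and 5809 RPKM in the gLuc libraries. The gFBXW7 libraries lay below all others, with replicate 1 far below its group. ND4L had 506, 990 and 189 RPKM in gFBXW7_gKMT2D, 181, 271 and 230 RPKM in gFBXW7 and 297, 744 and 937 RPKM in gLuc, and here replicate 3 of gFBXW7_gKMT2D fell within the gFBXW7 range. ND6, a complex I subunit and the only one of the 13 genes on the minus strand of the reference (chrM:14149-14673), had 2357, 2057 and 2279 RPKM in gFBXW7_gKMT2D, 498, 1313 and 1330 RPKM in gFBXW7 and 1263, 1664 and 1908 RPKM in gLuc. Its message is described as lacking a poly(A) tail, and the strand setting of the counting is not given in the sources used here, so its level relative to the others is uncertain. ND6 was higher in every gFBXW7_gKMT2D library than in any other library.

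**Figure D1:**
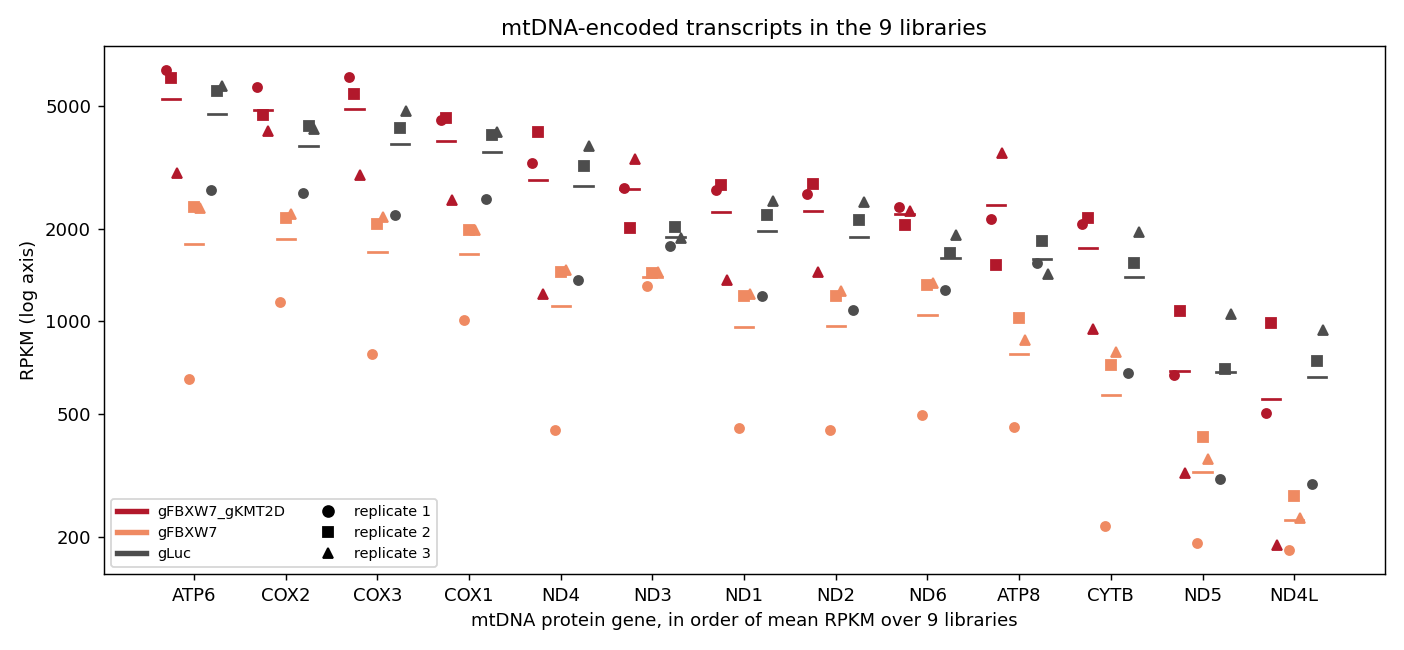
RPKM (log axis) of the 13 mtDNA protein genes in each library, with points for libraries, marker shapes for replicate numbers and lines for group means (n = 3). Replicate 1 of gFBXW7 is the lowest library for all 13 genes, and ND3 spans the smallest range.

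Fold changes were fitted by the edgeR quasi-likelihood model over all 9 libraries, scaled by TMM (trimmed mean of M values). Here the 13 mtDNA genes had a median log2 fold change of -1.03 in gFBXW7 against gLuc, ranging from -1.48 for ND4L to -0.39 for ND3, beside -0.00 for all tested genes. In gFBXW7_gKMT2D against gLuc the median was 0.33, ranging from -0.21 for ND4L to 0.71 for ATP8, beside 0.00 for all genes. In gFBXW7_gKMT2D against gFBXW7 it was 1.26, ranging from 1.02 for ND3 to 1.71 for ATP8, beside 0.02 for all genes. After TMM scaling, the libraries of the 2 groups did not overlap for 8 of the 13 genes in gFBXW7 against gLuc, all lower in gFBXW7. Without overlap, 4.49% of all tested genes were lower there. In gFBXW7_gKMT2D against gLuc they did not overlap for 2 genes, ND6 and COX2, both higher in gFBXW7_gKMT2D (3.28% of all genes). In RPKM the COX2 libraries did overlap there, with 4149 in replicate 3 of gFBXW7_gKMT2D and 4286 in replicate 2 of gLuc. ND1, among the 8 genes in gFBXW7 against gLuc, also overlapped in RPKM, with 1226 in replicate 3 of gFBXW7 and 1207 in replicate 1 of gLuc. In gFBXW7_gKMT2D against gFBXW7 the TMM-scaled libraries did not overlap for 10 genes, all higher in gFBXW7_gKMT2D (4.35% of all genes). These contrasts chose the members, and the comparisons share groups, so nothing further is read from the counts. Without gLuc replicate 1, the median in gFBXW7_gKMT2D against gLuc was 0.05. Fewer cells with the transcripts and less of them per cell cannot be told apart in bulk libraries.

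**Figure D2:**
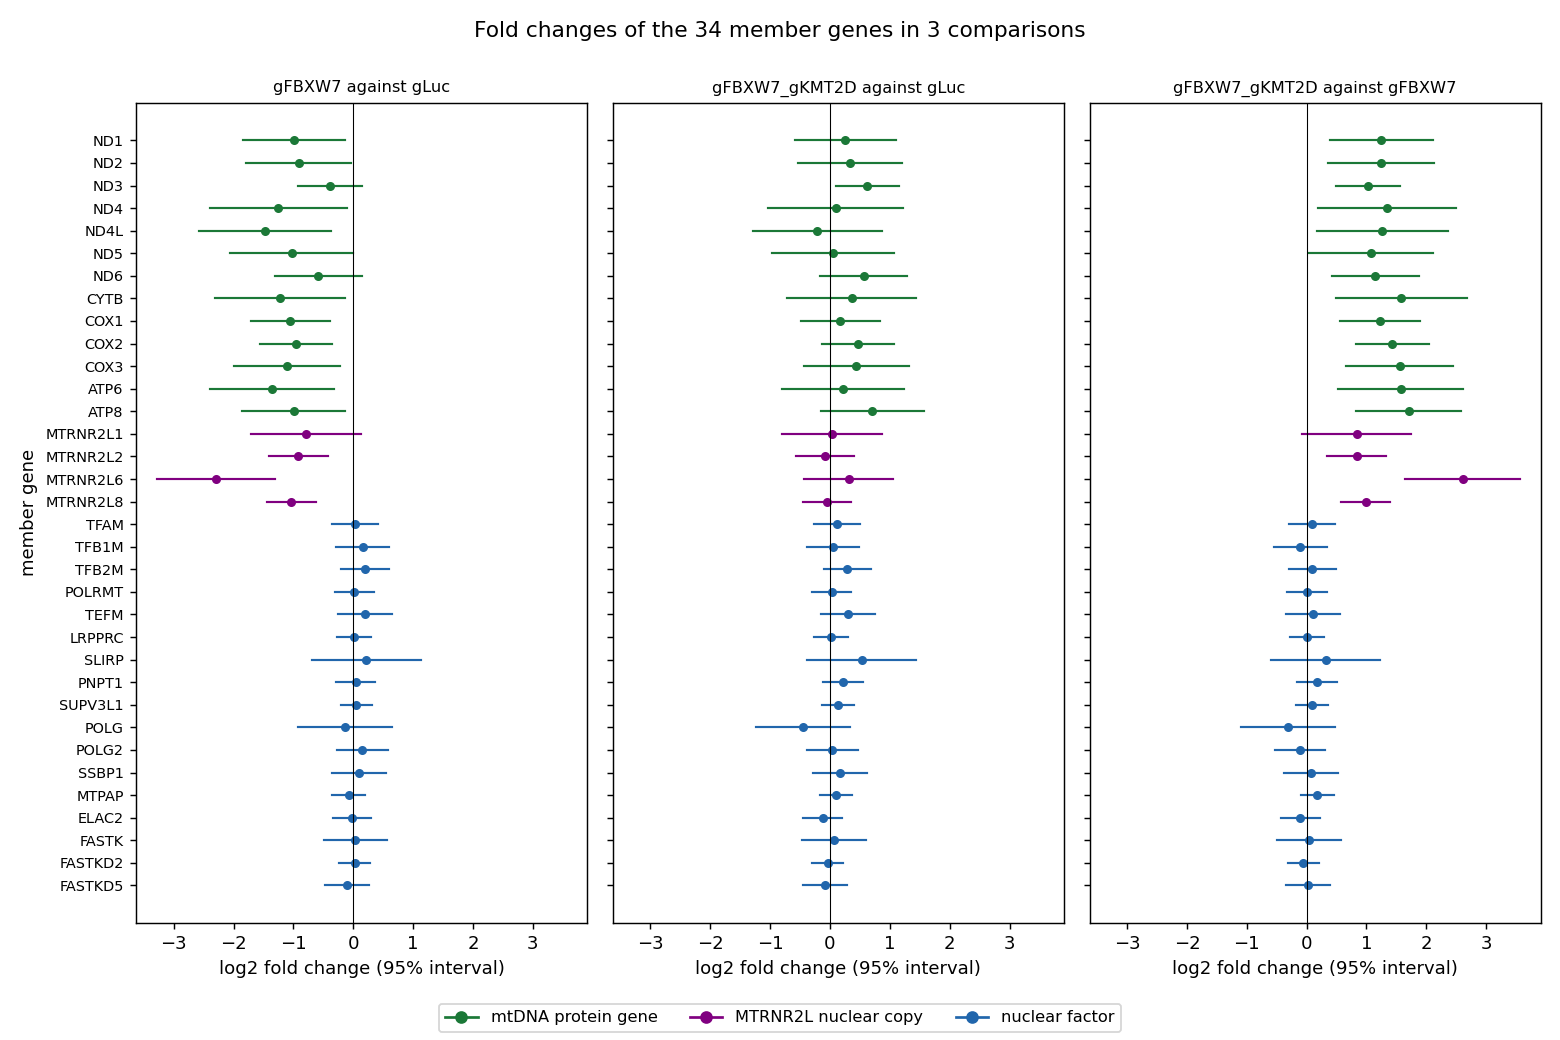
Log2 fold changes (points) and 95% intervals (lines) of the 34 genes in the 3 comparisons, from the edgeR fit of 9 libraries. The mtDNA genes lie between -1.48 and -0.39 in gFBXW7 against gLuc and between 1.02 and 1.71 in gFBXW7_gKMT2D against gFBXW7, while the 17 nuclear factors lie between -0.45 and 0.53 in all 3.

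The mtDNA genes did not keep fixed proportions to each other. As a share of the counts of all 13, ND1 varied least, from 6.41% to 7.61% over the 9 libraries, and ND2 also varied little, from 6.92% to 8.51%. COX1, the catalytic subunit of cytochrome c oxidase and the largest contributor, made up 18.8% to 24.5%. The shortest genes varied most. ATP8 made up 0.858% to 3.56%, highest in replicate 3 of gFBXW7_gKMT2D, ND3 1.90% to 7.07%, highest in replicate 1 of gFBXW7, and ND4L 0.275% to 0.844%, also highest in that gFBXW7 library. As a description of genes that make up the share themselves, the slope of a gene on log2 of the mtDNA share within groups was 1.35 for ND4, 1.28 for CYTB and 1.19 for ATP6. It was -0.04 for ATP8 (SE 0.33) and -0.19 for ND3 (SE 0.18), both short genes, while ND4L, also short, had a slope of 0.97 (SE 0.29). In RPKM, ND3 spanned 2.59-fold over the 9 libraries against 10.1-fold for ATP6.

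The ratio of ATP8 to ATP6, which come from the same messenger RNA, changed from library to library within each group. In RPKM it was 0.328, 0.247 and 1.16 in gFBXW7_gKMT2D, 0.702, 0.435 and 0.373 in gFBXW7 and 0.580, 0.325 and 0.246 in gLuc, so the 3 groups overlapped. The ratio of ND4L to ND4, also from 1 messenger RNA, was 0.155, 0.241 and 0.154 in gFBXW7_gKMT2D, 0.407, 0.188 and 0.157 in gFBXW7 and 0.218, 0.232 and 0.253 in gLuc. It too overlapped between groups. Both ratios were set beside a measure of how each library represented short genes, the median log2 deviation from the 9-library mean of 804 nuclear genes under 1000 bases minus that of 6472 nuclear genes over 4000 bases. This index was 0.14, -0.56 and 0.74 in gFBXW7_gKMT2D, 0.26, 0.07 and -0.02 in gFBXW7 and 0.28, -0.27 and -0.60 in gLuc. The ATP8 to ATP6 ratio was high where the index was high, with Pearson r = 0.93 and Spearman rho = 0.93 over the 9 libraries (exact two-sided permutation, adjusted p = 0.00046 and 0.0039). Without the 2 libraries farthest from the median index, replicate 3 of gFBXW7_gKMT2D and replicate 3 of gLuc, r was 0.84. The ND4L to ND4 ratio gave r = -0.29 and rho = -0.48 (exact permutation, adjusted p = 0.54 and 0.23).

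**Figure D3:**
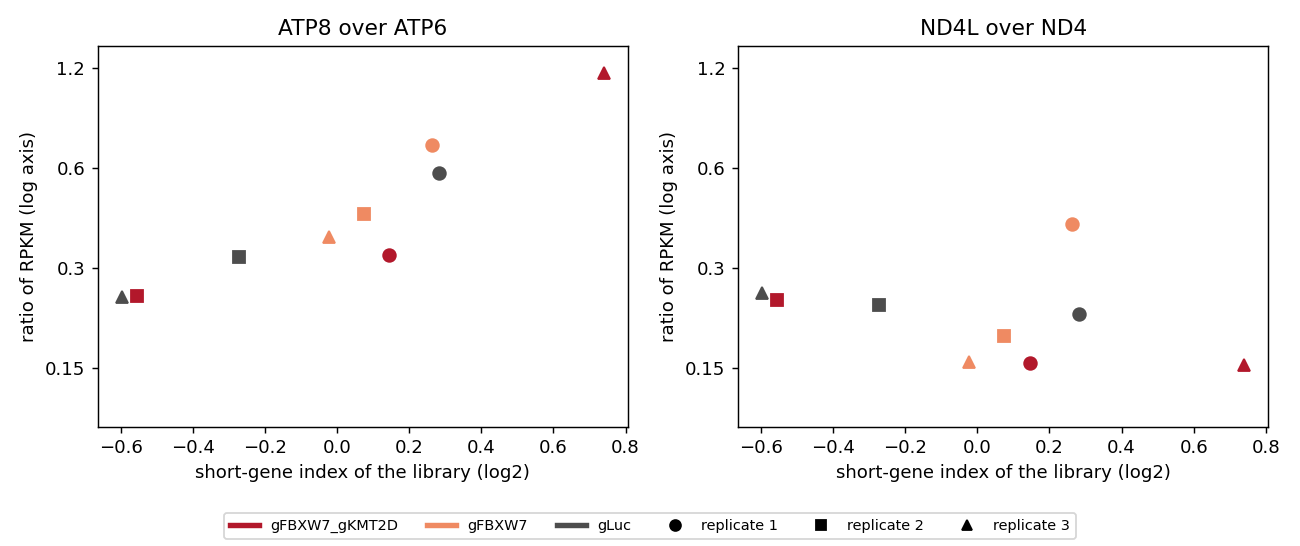
RPKM ratios (log axis) of ATP8 to ATP6 and of ND4L to ND4 in each library, against the short-gene index of the library in log2 units. The ATP8 to ATP6 ratio runs from 0.246 to 1.16 along the index, and the ND4L to ND4 ratio shows no such order.

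The share of MALAT1, a long noncoding RNA kept in the nucleus, stood beside the ATP8 to ATP6 ratio in the same way, with r = 0.94 and rho = 0.92 (exact permutation, adjusted p = 0.00046 and 0.0039), and r = 0.83 without the same 2 libraries. MALAT1 made up 0.197%, 0.114% and 0.475% of counts in gFBXW7_gKMT2D, 0.281%, 0.206% and 0.188% in gFBXW7 and 0.191%, 0.123% and 0.0961% in gLuc. The mtDNA share itself, the 13 genes as a percentage of all counts, was 3.63%, 3.67% and 2.04% in gFBXW7_gKMT2D, 0.638%, 1.52% and 1.54% in gFBXW7 and 1.64%, 3.02% and 3.33% in gLuc. It gave r = -0.52 and rho = -0.47 with the index (exact permutation, adjusted p = 0.22 and 0.23) and r = -0.56 and rho = -0.58 with log2 of the MALAT1 share (adjusted p = 0.22 each). Without replicates 3 of gFBXW7_gKMT2D and gLuc, these r values were -0.64 and -0.81. The 6 relations were chosen after the data had been seen, and their p-values are adjusted over the 6. With the trend of each library with gene length removed, the median log2 fold changes of the 13 genes were -1.23, 0.16 and 1.43 in gFBXW7 against gLuc, gFBXW7_gKMT2D against gLuc and gFBXW7_gKMT2D against gFBXW7. With 1 surrogate variable in the fit they were -0.87, 0.54 and 1.29. That variable was highest in replicate 3 of gFBXW7_gKMT2D and lowest in replicate 3 of gLuc, as the short-gene index was. Against medians of -1.03, 0.33 and 1.26 without either step, the 2 adjustments moved the first 2 comparisons in opposite directions.

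The 4 MTRNR2L copies were lower in gFBXW7 than in both other groups by their fitted fold changes. MTRNR2L8 had 86.9, 94.0 and 63.4 CPM in gFBXW7_gKMT2D, 39.3, 48.9 and 36.3 in gFBXW7 and 63.5, 97.0 and 104.1 in gLuc. MTRNR2L2 had 33.5, 39.4 and 31.2 CPM in gFBXW7_gKMT2D, 23.9, 22.5 and 12.7 in gFBXW7 and 34.4, 42.2 and 39.2 in gLuc. For both genes the gFBXW7 libraries lay below all others, and the gFBXW7_gKMT2D and gLuc libraries overlapped. MTRNR2L6 and MTRNR2L1 rested on few reads. MTRNR2L6 had 16, 36 and 18 reads in gFBXW7_gKMT2D, 2, 2 and 6 reads in gFBXW7 and 14, 22 and 16 reads in gLuc. MTRNR2L1 had 15, 28 and 13 reads in gFBXW7_gKMT2D, 13, 6 and 9 reads in gFBXW7 and 16, 24 and 10 reads in gLuc, where the gFBXW7 and gLuc libraries overlapped.

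**Figure D4:**
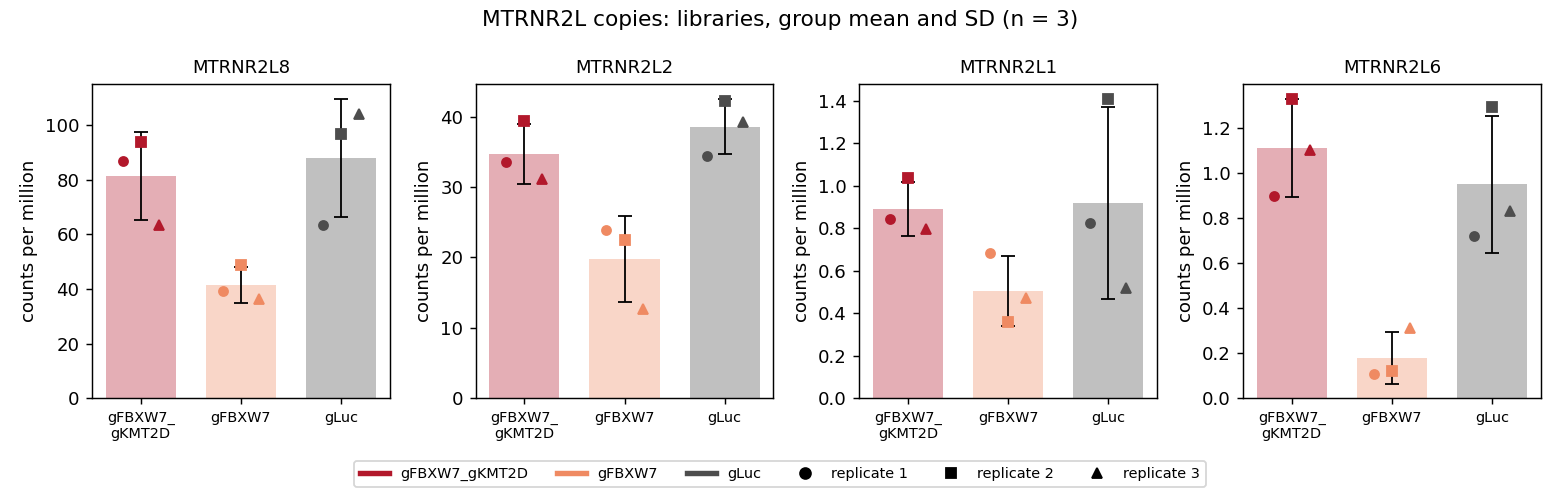
CPM of the 4 MTRNR2L genes, with bars for group means, error bars for SD (n = 3 libraries) and points for libraries, on axes that start at 0. MTRNR2L8 and MTRNR2L2 are lowest in the 3 gFBXW7 libraries, and MTRNR2L6 rests on 2 to 6 reads there.

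The log2 fold changes of MTRNR2L8 were -1.04 (SE 0.18) in gFBXW7 against gLuc, -0.05 (SE 0.18) in gFBXW7_gKMT2D against gLuc and 0.99 (SE 0.18) in gFBXW7_gKMT2D against gFBXW7. Those of MTRNR2L2 were -0.92, -0.09 and 0.83 (SE 0.22 in each). The fitted values of MTRNR2L6, -2.30, 0.31 and 2.61, depend on its few reads and were -0.33, 0.06 and 0.39 on the log2 scale of RPKM plus 1. The libraries did not overlap for 3 of the 4 copies in gFBXW7 against gLuc, lower in gFBXW7 (4.49% of all genes were lower without overlap). They overlapped for all 4 in gFBXW7_gKMT2D against gLuc (6.97% of all genes did not overlap, in either direction). All 4 were without overlap in gFBXW7_gKMT2D against gFBXW7, higher in gFBXW7_gKMT2D (4.35% of all genes). These contrasts chose the copies, so nothing is read from the counts. The table holds 6 more MTRNR2L rows, none with over 15 reads in a library. Group means of both MTRNR2L reads and the mtDNA share were lowest in gFBXW7. The 4 copies made up 0.0118% ± 0.00200 of counts in gFBXW7_gKMT2D, 0.00619% ± 0.00112 in gFBXW7 and 0.0129% ± 0.00253 in gLuc (SD, n = 3). Within gFBXW7, replicate 1 had the lowest mtDNA share, while its MTRNR2L8 level lay between those of replicates 2 and 3. The slope of MTRNR2L8 on log2 of the mtDNA share within groups was 0.24 (SE 0.13, edgeR adjusted p = 0.225), and that of MTRNR2L2 was -0.18 (SE 0.17, adjusted p = 0.461). Whether reads of the mitochondrial 16S RNA contribute to these rows was not tested.

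None of the 17 nuclear factors passed the edgeR test in any comparison, at a share of all genes of 0% in gFBXW7 against gLuc, 0.0528% in gFBXW7_gKMT2D against gLuc and 0.0603% in gFBXW7_gKMT2D against gFBXW7. None had an unadjusted p under 0.05 either, where 1.58%, 3.61% and 4.22% of all genes did in these comparisons, and none was called by DESeq2, limma-voom or limma on RPKM. Their median log2 fold changes were 0.04, 0.07 and 0.04 in the same order, with single values from -0.14 to 0.21, from -0.45 to 0.53 and from -0.31 to 0.32. The 95% interval of the fold change lay within 1 log2 unit of 0 for 16 of 17 factors in gFBXW7 against gLuc and for 15 of 17 in each of the others, the exceptions being SLIRP in all 3 comparisons and POLG in the comparisons of gFBXW7_gKMT2D. Intervals within 0.5 log2 units were reached by 9 of 17 factors in each comparison. Of all 13262 tested genes, 10531, 10356 and 10731 had intervals within 1 log2 unit in the same order. Intervals within 0.5 were reached by 4185, 3934 and 3989 of them. The libraries of the 2 groups overlapped for all 17 factors in gFBXW7 against gLuc and in gFBXW7_gKMT2D against gFBXW7, where 8.86% and 9.55% of all genes did not overlap. In gFBXW7_gKMT2D against gLuc, 1 of 17 did not overlap, MTPAP, beside 6.97% of all genes.

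Among the transcription factors, TFAM, which packages mtDNA and starts its transcription (chr10:58385022-58399221), had 21.1, 24.5 and 28.6 RPKM in gFBXW7_gKMT2D, 24.5, 22.9 and 24.8 RPKM in gFBXW7 and 23.8, 24.7 and 24.5 RPKM in gLuc. Its group means were nearly level, at 24.7 ± 3.72, 24.1 ± 1.03 and 24.3 ± 0.524 RPKM in these groups (SD, n = 3). The log2 fold change of TFAM was 0.02 (95% interval -0.36 to 0.41) in gFBXW7 against gLuc and 0.09 (-0.30 to 0.48) in gFBXW7_gKMT2D against gFBXW7. POLRMT, the mitochondrial RNA polymerase (chr19:617224-633604), had 18.5, 17.8 and 10.7 RPKM in gFBXW7_gKMT2D, 15.3, 16.3 and 15.6 RPKM in gFBXW7 and 15.5, 16.4 and 15.8 RPKM in gLuc. Replicate 3 of gFBXW7_gKMT2D was the lowest of the 9 libraries and the other 2 of that group the highest, with log2 fold changes of 0.02 in gFBXW7 against gLuc (interval -0.31 to 0.35) and 0.01 in gFBXW7_gKMT2D against gFBXW7 (-0.32 to 0.34).

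TEFM, the elongation factor of the polymerase (chr17:30897336-30906820), had 11.8, 9.70 and 12.7 RPKM in gFBXW7_gKMT2D, 11.8, 9.61 and 11.3 RPKM in gFBXW7 and 11.1, 9.26 and 8.98 RPKM in gLuc. All groups overlapped, and the log2 fold changes were 0.19 (SE 0.20) in gFBXW7 against gLuc and 0.30 (SE 0.20) in gFBXW7_gKMT2D against gLuc. The initiation factor TFB2M ranged from 29.8 to 39.3 RPKM over the 9 libraries. TFB1M, its relative that methylates mitochondrial ribosomal RNA, ranged from 1.83 to 2.63 RPKM.

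Of the replication genes, POLG, the catalytic subunit of the mtDNA polymerase (chr15:89305198-89334861), had 18.2, 24.8 and 5.53 RPKM in gFBXW7_gKMT2D, 17.7, 20.5 and 20.6 RPKM in gFBXW7 and 19.0, 22.3 and 25.5 RPKM in gLuc. A single library, replicate 3 of gFBXW7_gKMT2D, stood apart with 402 reads, below all others. With all libraries, gFBXW7_gKMT2D against gLuc gave POLG a log2 fold change of -0.45 (SE 0.35, edgeR adjusted p = 0.902), and without that library it was -0.07. Against gFBXW7 the values were -0.31 (SE 0.35, edgeR adjusted p = 1) and, without it, 0.07. That library also had the lowest RPKM of all libraries for POLRMT, ELAC2, FASTKD5, LRPPRC and FASTKD2. It had the highest for SLIRP, TFAM, SSBP1, TFB2M, PNPT1 and TEFM. For TFB1M, POLG2, SUPV3L1, MTPAP and FASTK it was neither. The same library had the highest short-gene index and MALAT1 share, whose part in the low POLG count and in these levels was not tested. POLG2, the accessory subunit of POLG, ranged from 5.26 to 6.93 RPKM. SSBP1, the mitochondrial single-strand DNA-binding protein, ranged from 61.2 to 83.0 RPKM.

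LRPPRC and SLIRP form the complex that binds and stabilises mtDNA messages. LRPPRC (chr2:43886508-43996005) had 57.6, 66.1 and 47.9 RPKM in gFBXW7_gKMT2D, 61.1, 54.1 and 58.2 RPKM in gFBXW7 and 52.8, 61.4 and 63.3 RPKM in gLuc. Its log2 fold changes of 0.01, 0.02 and 0.01 in gFBXW7 against gLuc, gFBXW7_gKMT2D against gLuc and gFBXW7_gKMT2D against gFBXW7 (SE 0.13 in each) were the smallest of the 34 genes in each comparison. SLIRP (chr14:77708071-77761104) had 80.3, 48.2 and 142.2 RPKM in gFBXW7_gKMT2D, 89.1, 73.3 and 69.0 RPKM in gFBXW7 and 85.7, 65.1 and 53.2 RPKM in gLuc. The gFBXW7_gKMT2D libraries held both its highest and its lowest level, and SLIRP is short, at 535 bases in the table. For gFBXW7_gKMT2D against gLuc the SLIRP log2 fold change was 0.53 (SE 0.41, edgeR adjusted p = 0.902), and it turned to -0.11 without replicate 3 of gFBXW7_gKMT2D. Against gFBXW7 it was 0.32 (SE 0.41, edgeR adjusted p = 1) and turned to -0.31 without that library.

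The degradosome pair was steady. PNPT1, a polynucleotide phosphorylase (chr2:55634265-55693910), had 30.1, 30.4 and 33.7 RPKM in gFBXW7_gKMT2D, 27.2, 27.6 and 31.4 RPKM in gFBXW7 and 26.0, 30.3 and 30.1 RPKM in gLuc. SUPV3L1, its helicase partner (chr10:69180232-69209099), had 23.3, 22.5 and 20.0 RPKM in gFBXW7_gKMT2D, 19.1, 21.1 and 23.3 RPKM in gFBXW7 and 18.8, 21.5 and 22.8 RPKM in gLuc. For both genes the libraries of all 3 groups overlapped, and their log2 fold changes lay between 0.04 and 0.21. MTPAP, the mitochondrial poly(A) polymerase, ranged from 10.7 to 14.1 RPKM and is singled out after its values were seen. Its libraries did not overlap between gFBXW7_gKMT2D and gLuc after TMM scaling, although they did in RPKM, and the log2 fold change was 0.10 (SE 0.12, edgeR adjusted p = 0.902). ELAC2, which trims transfer RNA ends out of the precursors, ranged from 28.0 to 49.8 RPKM. The RNA-binding proteins FASTK, FASTKD2 and FASTKD5 ranged from 31.5 to 51.6, from 10.1 to 12.1 and from 8.15 to 15.7 RPKM.

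A wider list of nuclear genes for mtDNA upkeep and RNA processing, none of them among the 34, was counted in the same way. Of its 45 tested genes, 0 passed the edgeR test in each of the 3 comparisons, with 0, 1 and 1 at an unadjusted p under 0.05 in gFBXW7 against gLuc, gFBXW7_gKMT2D against gLuc and gFBXW7_gKMT2D against gFBXW7. Of all genes, 0%, 0.0528% and 0.0603% passed and 1.58%, 3.61% and 4.22% had such a p. Counts from the test therefore do not set the list apart. Their median log2 fold changes were 0.09, 0.09 and -0.01. Of 8 nuclear regulators of mitochondrial genes, among them NRF1 and ESRRA, 0 passed the test in each comparison and 0 had an unadjusted p under 0.05. At the same shares of all genes, a list of 8 is too short for these counts to say anything about it. In the wider list of 45, fold changes were above 0 for 35, 32 and 20 genes, beside 6535, 6635 and 7245 of all 13262. Without overlap, 5, 4 and 5 of the 45 were higher and 1, 0 and 5 lower. Of all genes, 8.86%, 6.97% and 9.55% did not overlap, in either direction. A larger part of the list than of all genes thus lacked overlap, which was not tested.

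Whether factors followed the mtDNA transcripts from library to library was tested by an edgeR slope on log2 of the mtDNA share, with group as a term. Within groups, 0 of 17 factors passed (0.0452% of all genes did). The 6 genes that passed were all mtDNA genes, which make up the share and so are no evidence. At an unadjusted p under 0.05 stood 6 of 17 factors, where 31.7% of all genes did, so that count is near the background. The slopes of the factors had a median of -0.10 and were below 0 for 11 of 17, among them all 6 with an unadjusted p under 0.05. All tested genes had a median slope of 0.01, and 6442 of 13262 were below 0. SLIRP had a slope of -0.76 per log2 unit of the share (SE 0.23, adjusted p = 0.0942), POLG2 of -0.36 (SE 0.11, adjusted p = 0.0915) and FASTK of -0.44 (SE 0.14, adjusted p = 0.0972). TEFM and TFB1M had slopes of -0.35 each, TFB2M of -0.27, TFAM of -0.23, POLRMT of 0.10 and LRPPRC of -0.02. POLG had the largest positive slope, at 0.49 (SE 0.25, adjusted p = 0.198).

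The size of these slopes and which of them passed depended on single libraries, on the terms of the model and on the filter. In 18 alternative settings SLIRP ranged from -1.18 to -0.22 and POLG from 0.09 to 0.90. For both genes the slope nearest 0 came with a replicate block in place of group, and the farthest without replicate 1 of gFBXW7. TFB1M, TFB2M, TEFM, TFAM, SSBP1, POLG2, FASTK and FASTKD2 also kept negative slopes, and SUPV3L1, ELAC2 and FASTKD5 positive ones. POLRMT, LRPPRC, PNPT1 and MTPAP changed sign. The settings share libraries, so they are not independent. Within groups, the mtDNA share also ran against the short-gene index and the MALAT1 share, with r = -0.73 and -0.77 for deviations from group means over the 9 libraries, given as a description. The part of the MALAT1 share in the slopes was not tested, and slopes with the gene length trend removed are given last. Without replicate 1 of gFBXW7, the library with the lowest mtDNA share, 8 of 17 factors passed, but so did 31.1% of all genes. TFB1M, TEFM, SLIRP, POLG2, SSBP1 and FASTK then had negative slopes, from -1.18 for SLIRP to -0.48 for TFB1M, and POLG and FASTKD5 positive ones of 0.90 and 0.43. Without replicate 2 of gFBXW7_gKMT2D, SLIRP alone passed among the factors (slope -0.60, edgeR adjusted p = 0.0366), and 7.29% of all genes did. Without a filter on low counts SLIRP, POLG and FASTK passed, beside 11.0% of all genes. With the gene length trend of each library removed, 0 of 17 passed (0.121% of all genes), and the slopes of some factors were nearer 0 and those of others farther from it. Among those nearer 0 were SLIRP at -0.27, TEFM at -0.17 and TFB2M at -0.07, and among those farther were TFB1M at -0.54, TFAM at -0.33, FASTKD2 at -0.27 and LRPPRC at -0.16.

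**Figure D5:**
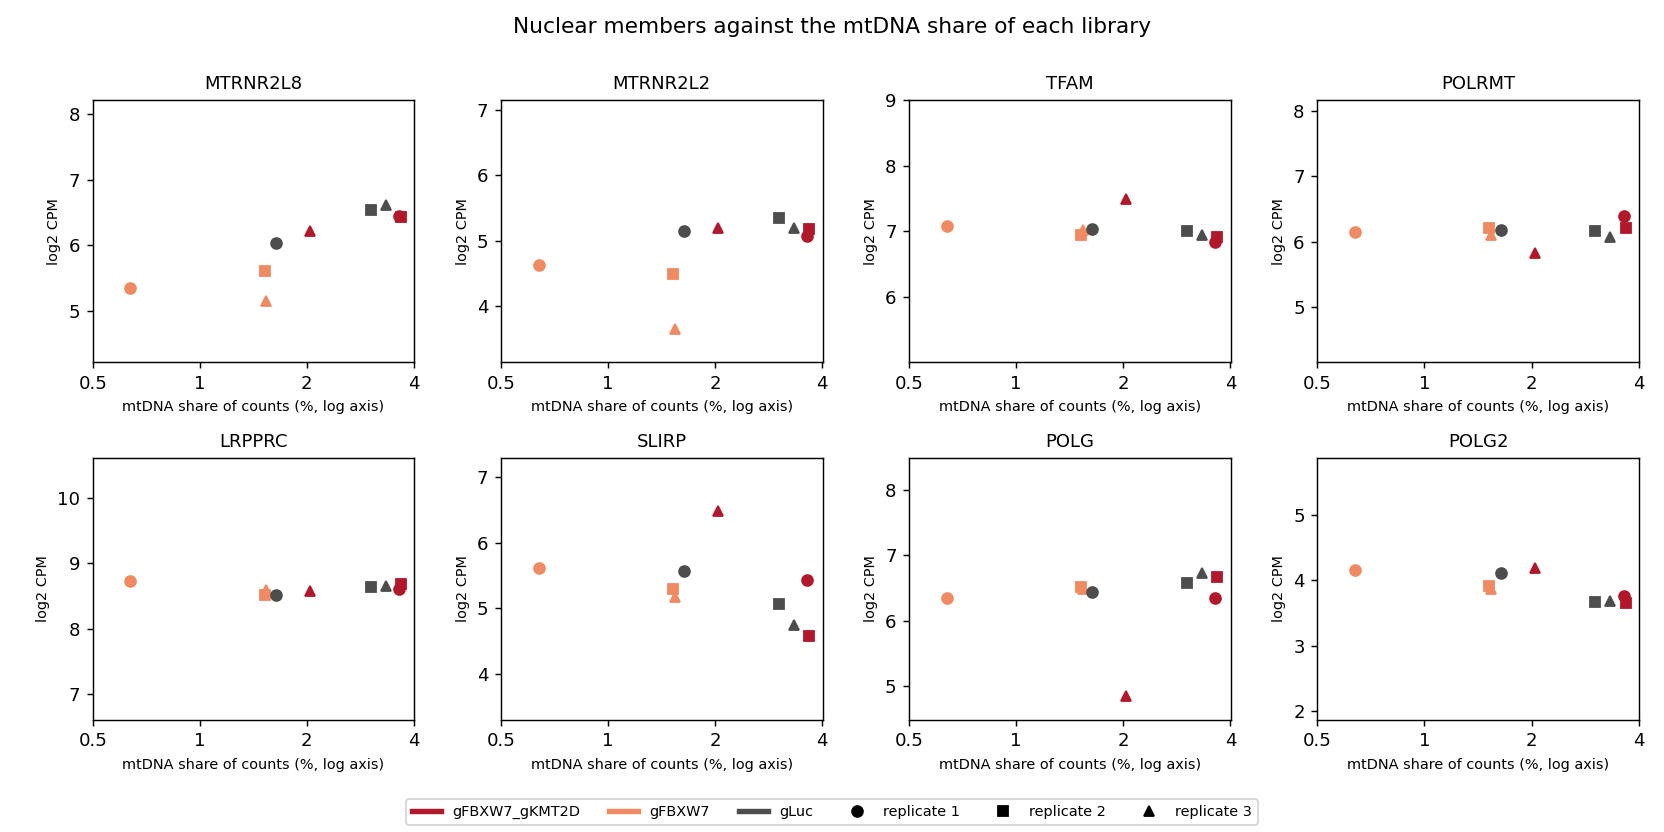
Log2 CPM of 8 nuclear members against the mtDNA share of counts in percent (log axis), with colours for groups and shapes for replicate numbers; each vertical axis spans 4 log2 units. MTRNR2L8 is lowest in the 3 gFBXW7 libraries, and LRPPRC lies nearly flat. Replicate 3 of gFBXW7_gKMT2D stands apart for SLIRP and POLG, and is also the highest for TFAM (7.49) and the lowest for POLRMT (5.83).

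Over the 9 libraries with groups pooled, none of 13249 nuclear genes was correlated with the mtDNA share after adjustment over all 13262 tested genes. Of these nuclear genes, 14.0% had an unadjusted exact permutation p under 0.05. Of the 17 factors 2 did, both inversely. POLG2 had r = -0.77 and rho = -0.72 (exact permutation, unadjusted p = 0.013 and 0.037, adjusted p = 0.32 and 0.30), and TFB1M had r = -0.70 and rho = -0.65 (unadjusted p = 0.035 and 0.067, adjusted p = 0.34 and 0.30). Without the 2 libraries farthest from the median share, replicate 2 of gFBXW7_gKMT2D and replicate 1 of gFBXW7, r was -0.66 for POLG2 and -0.53 for TFB1M. TFAM had r = -0.31 and rho = -0.60 (exact permutation, adjusted p = 0.60 and 0.33). LRPPRC had r = -0.05 and rho = 0.30 over all 9 libraries (exact permutation, adjusted p = 0.94 and 0.61) and r = 0.82 without those 2 libraries, so its relation rests on which libraries are kept. The median r was -0.31 for the factors and 0.03 for all nuclear genes tested. MTRNR2L8 had r = 0.85 and rho = 0.80 with groups pooled, given as a description with no test, since it and the mtDNA genes were both chosen by their differences between these groups. For deviations from group means its r was 0.59.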

How the data were processed

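Counts per gene and RPKM were deposited by the authors for 9 libraries. The authors' tools were Trimmomatic, STAR, featureCounts and DESeq2 on build GRCh38, per the submitters' processing notes; per the labels' protocols, libraries were poly(A)-selected and strand-specific. Read length, strand and multi-mapping settings are not given in the sources used here. The deposited RPKM equal the counts scaled by table length and library total, to a relative difference of 8.5e-07. The 1 unnamed row, equal to the sum of the others in all 9 libraries, was left out, and 12580 of 38478 genes had no read.

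Models of the counts were fitted in edgeR 4.0.16 under R 4.3.3 (filterByExpr, TMM, quasi-likelihood F test, 9 libraries, group as the only term; threshold 0.05, Benjamini-Hochberg over 13262 genes). Non-overlap of groups was read from TMM-scaled CPM. Log2 CPM used a prior count of 2. The slope on log2 mtDNA share kept group as a term. Correlations used all 362880 orders of the libraries. Sequences and coordinates are from GENCODE v29, matched by symbol for all 34 genes. Pairs of replicates differed by 6.86 to 254 chi-squared per degree of freedom, so none was repeated. Replicate numbers were not treated as pairs. The members, lists and tests were chosen with earlier results of these data known. All 34 genes are accounted for. Values in every library are printed for the highest and lowest mtDNA gene and ND6, for the MTRNR2L genes, and for TFAM, POLRMT, TEFM, LRPPRC, SLIRP, PNPT1, SUPV3L1 and POLG. Procedures were tested on simulated data. Alternatives were other scalings and filters, DESeq2 1.42.0, limma 3.58.1 (voom, and log2 of RPKM plus 1), 6 libraries, a replicate block, 1 surrogate variable (sva 3.50.0) and leaving out libraries; removal of the gene length trend was added after seeing the data. Python 3.11.15 with pandas 2.3.3, scipy 1.17.1, matplotlib 3.10.9 and Biopython 1.88 was used.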

Additional observations from a re-analysis of the deposited data

How the results depend on the processing

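None of the 17 nuclear factors passed the test in the 3 comparisons under any of the 21 alternatives (lowest adjusted p = 0.2), and the mtDNA medians kept their direction. Leaving out single libraries, they ranged from -1.25 to -0.77 in gFBXW7 against gLuc, from 0.05 to 0.54 in gFBXW7_gKMT2D against gLuc and from 0.99 to 1.47 in gFBXW7_gKMT2D against gFBXW7. Of single mtDNA values, 273 of 273, 262 of 273 and 273 of 273 kept their sign in these comparisons. The median of the factors moved within small bounds. In gFBXW7_gKMT2D against gLuc it was 0.012 by limma on RPKM, -0.015 with 1 surrogate variable and 0.019 to 0.17 with single libraries left out, and in gFBXW7_gKMT2D against gFBXW7 it was -0.080 to 0.14 with single libraries left out.

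Counts of called genes depended on the setting. In gFBXW7 against gLuc, where edgeR called 0 genes (209 at an unadjusted p under 0.05), DESeq2 called 1, MTRNR2L8, which was itself chosen by such fold changes, so this call is no independent test. In gFBXW7_gKMT2D against gLuc (7 genes) and gFBXW7_gKMT2D against gFBXW7 (8 genes), the counts were 21 and 33 without a filter, 24 and 32 by DESeq2, 4 and 3 by limma on RPKM, 2 and 0 with the 6 compared libraries alone, and 53 and 125 with 1 surrogate variable. In the second of these they were also 5 with upper quartile scaling and 5 with the length trend removed. With single libraries left out they ranged from 2 to 8 and from 0 to 7. Same-numbered libraries had correlations of deviations from group means of -0.59 to 0.45. Differently numbered ones had -0.74 to 0.72, so these correlations cannot show whether the numbers mark pairs. With a replicate block, 2 genes were called in each of these comparisons. Genes associated with the mtDNA share (6) numbered 2840 without a filter, 16 with the length trend removed and 0 to 4171 with single libraries left out. Factors associated with it (0) numbered 3 without a filter (SLIRP, POLG and FASTK) and 0 to 8 with single libraries left out. The cause of these differences was not tested.

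Group sizes of 3 limit precision, and MTRNR2L6 and MTRNR2L1 had at most 36 reads in a library.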

Other observations

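Outside the mtDNA genes, the row with the lowest p in the slope fit was MIR6723, a microRNA gene of chromosome 1 (chr1:632325-632413 on the minus strand of GRCh38). It had 1614, 1928 and 605 reads in gFBXW7_gKMT2D, 264, 660 and 758 in gFBXW7 and 725, 1136 and 1224 in gLuc, and its slope on log2 of the mtDNA share was 0.98 (SE 0.14, edgeR adjusted p = 0.0716), so it missed the threshold. MIR6723 lies on the opposite strand within MTCO1P12 (chr1:631074-632616), annotated as a nuclear pseudogene copy of COX1. Whether reads of COX1 were counted there was not tested. It was named after its values were seen.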
